A study of Homo sapiens with 12 samples.

Results

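The genes described here are 43 that encode proteins of the outer mitochondrial membrane and the factors that shape, move, remove or permeabilise mitochondria. They were taken by gene symbol, through GENCODE identifiers, from the 62703 gene entries of the count table, and the rule that lists them uses no expression value. All 43 were found, on 19 chromosomes, and all 43 passed the filter on low counts, which kept 15920 genes.

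HCT116 cells, a human colorectal carcinoma line, were transfected for 48 h with an siRNA against hnRNP U or with a control siRNA. hnRNP U is an RNA-binding protein, and the study asked how it acts on mRNAs that hold RNA G-quadruplexes (RG4s), 4-stranded folds of guanine runs. RNA was sequenced from total lysate and from heavy polysomes (HP RNA), the mRNAs that carry many ribosomes. The 4 conditions were hnRNP U siRNA in HP RNA, control siRNA in HP RNA, hnRNP U siRNA in total RNA and control siRNA in total RNA, with 3 libraries each from 3 independent experiments. All 4 used the same wild-type line and the same lipid transfection, and the model is a transient and incomplete silencing in a single line.

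Mitochondria fuse and divide all the time. Mitofusins and OPA1 join the outer and inner membranes, and the GTPase DNM1L, brought to the surface by adaptor proteins, constricts and divides them. The outer membrane is also the place where BCL2 family proteins decide on the release of cytochrome c, where PINK1 and mitophagy receptors mark damaged organelles for removal, where VDAC channels pass metabolites, and where motor adaptors link the organelle to microtubules. Some mRNAs of mitochondrial proteins are held and translated at this membrane, and AKAP1 and SYNJ2BP are among the proteins known to tether them.

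A 4-run RG4 motif was sought because the study asked about such folds. The motif was 4 runs of GGG separated by loops of 1 to 7 nt, on the transcript strand of the canonical transcript of GENCODE 44 (GRCh38). It was present in 9 of the 43 mRNAs (20.9%), against 26.5% of 12758 protein-coding genes tested. The first motif of the 5 of these mRNAs that changed after hnRNP U silencing is shown, with the guanine runs in capitals. AKAP1 holds it in its 5′ UTR at chr17:57085316-57085341 (plus strand). The other 4 hold it in the 3′ UTR, TRAK2 at chr2:201379792-201379809 (minus strand), CLUH at chr17:2689780-2689808 (minus strand), MIGA2 at chr9:129071635-129071656 (plus strand) and BAK1 at chr6:33573146-33573169 (minus strand).
AKAP1: GGGccGGGccgcgGGGcacagccGGG
TRAK2: GGGtagaGGGtGGGaGGG
CLUH: GGGccggGGGcgaggctGGGggaagcGGG
MIGA2: GGGaaaGGGgtctGGGgatGGG
BAK1: GGGattctGGGcttGGGgtgtGGG
The other 4 were OPA1, RHOT2 and BCL2, with the motif in the 5′ UTR, and AIFM1, with the motif in the coding sequence across a splice junction. A match describes the letters only and does not show that the fold forms.

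A second set of sequences concerns the siRNA. Which hnRNP U siRNA of the study went into these libraries is not stated. The site of siRNA 1, taken from the mutagenesis primer that alters it and found in the coding sequence of HNRNPU at chr1:244858238-244858256 (minus strand), is shown with the 7 bases opposite the seed of its guide strand in capitals. The same 7 bases (GTATGCT, in the sense of the transcript) stood in the 3′ UTR of 4 members (9.30%), against 7.30% of the protein-coding genes tested, and each is shown aligned to the HNRNPU site. The capitals of TRAK2 lie at chr2:201380003-201380009, of MCL1 at chr1:150575463-150575469 and of BCL2 at chr18:63126047-63126053 (all minus strand), and those of OPA1 at chr3:193695894-193695900 (plus strand).
HNRNPU: gtagaactctcGTATGCTa
TRAK2: tccatcaaatgGTATGCTc
MCL1: tttgtataggaGTATGCTc
BCL2: gtcagtttgcaGTATGCTc
OPA1: tgtaacacttgGTATGCTc
DNM1L held the 7 bases in its coding sequence.

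Library totals ran from 30305012 to 39761103 counts. HNRNPU itself was at 78.3 ± 3.71 CPM with hnRNP U siRNA and 1080 ± 61.5 CPM with control siRNA in HP RNA, and at 159 ± 9.47 and 1028 ± 67.9 CPM in total RNA (SD, n = 3 each; CPM are counts scaled to the library size after TMM). The 5 epithelial markers EPCAM, CDH1, KRT8, KRT18 and KRT19 stood at 55.3 to 3160 CPM over the 12 libraries. Of 6 markers of blood, endothelium, fibroblasts and liver, 5 were at or below 0.121 CPM, and COL1A1 was at 6.68 to 17.4 CPM.

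Silencing of hnRNP U moved the outer-membrane and dynamics genes in both directions, and mostly by little. In HP RNA, 20 of the 43 passed the test (46.5%), 11 higher and 9 lower, against 51.7 percent of all genes tested. In total RNA, 26 passed (60.5%), 16 higher and 10 lower, against 57.3 percent of all genes tested. The test was edgeR's quasi-likelihood test with Benjamini-Hochberg adjustment over all genes at 0.05, and every adjusted p given for a fold change is from it. These shares were close to those of all genes. With the experiment as a block, 27 of the 43 passed in HP RNA and 30 in total RNA, against 58.7% and 59.7% of all genes. The median absolute log2 fold change of the members was 0.14 in HP RNA and 0.16 in total RNA, against 0.28 and 0.26 over all genes. In bulk RNA a lower mRNA content per cell and a smaller share of cells with the mRNA cannot be told apart.

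Of the members, 17 passed in both kinds of RNA, and all 17 had the same sign in both, 9 higher and 8 lower. This is 39.5% of the members, against 45.0% of all genes tested. Of all genes that passed in both, 99.9% had the same sign, and the 2 kinds of RNA came from the same cultures. A further 9 passed in total RNA and not in HP RNA, 3 passed in HP RNA and not in total RNA, and 14 passed in neither. The 17 included AKAP1, MIGA1, TRAK2, BCL2L11, PGAM5, VDAC2 and BCL2L1 among those higher, and VDAC1, OMA1, BNIP3L, BID and PINK1 among those lower. Only 5 members in HP RNA and 4 in total RNA passed and moved by 0.5 or more on the log2 scale, against 23.5 and 22.5 percent of all genes. They were AKAP1, MIGA1, VDAC1 and TRAK2 in both, with MTFP1 added in HP RNA.

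**Figure D1:**
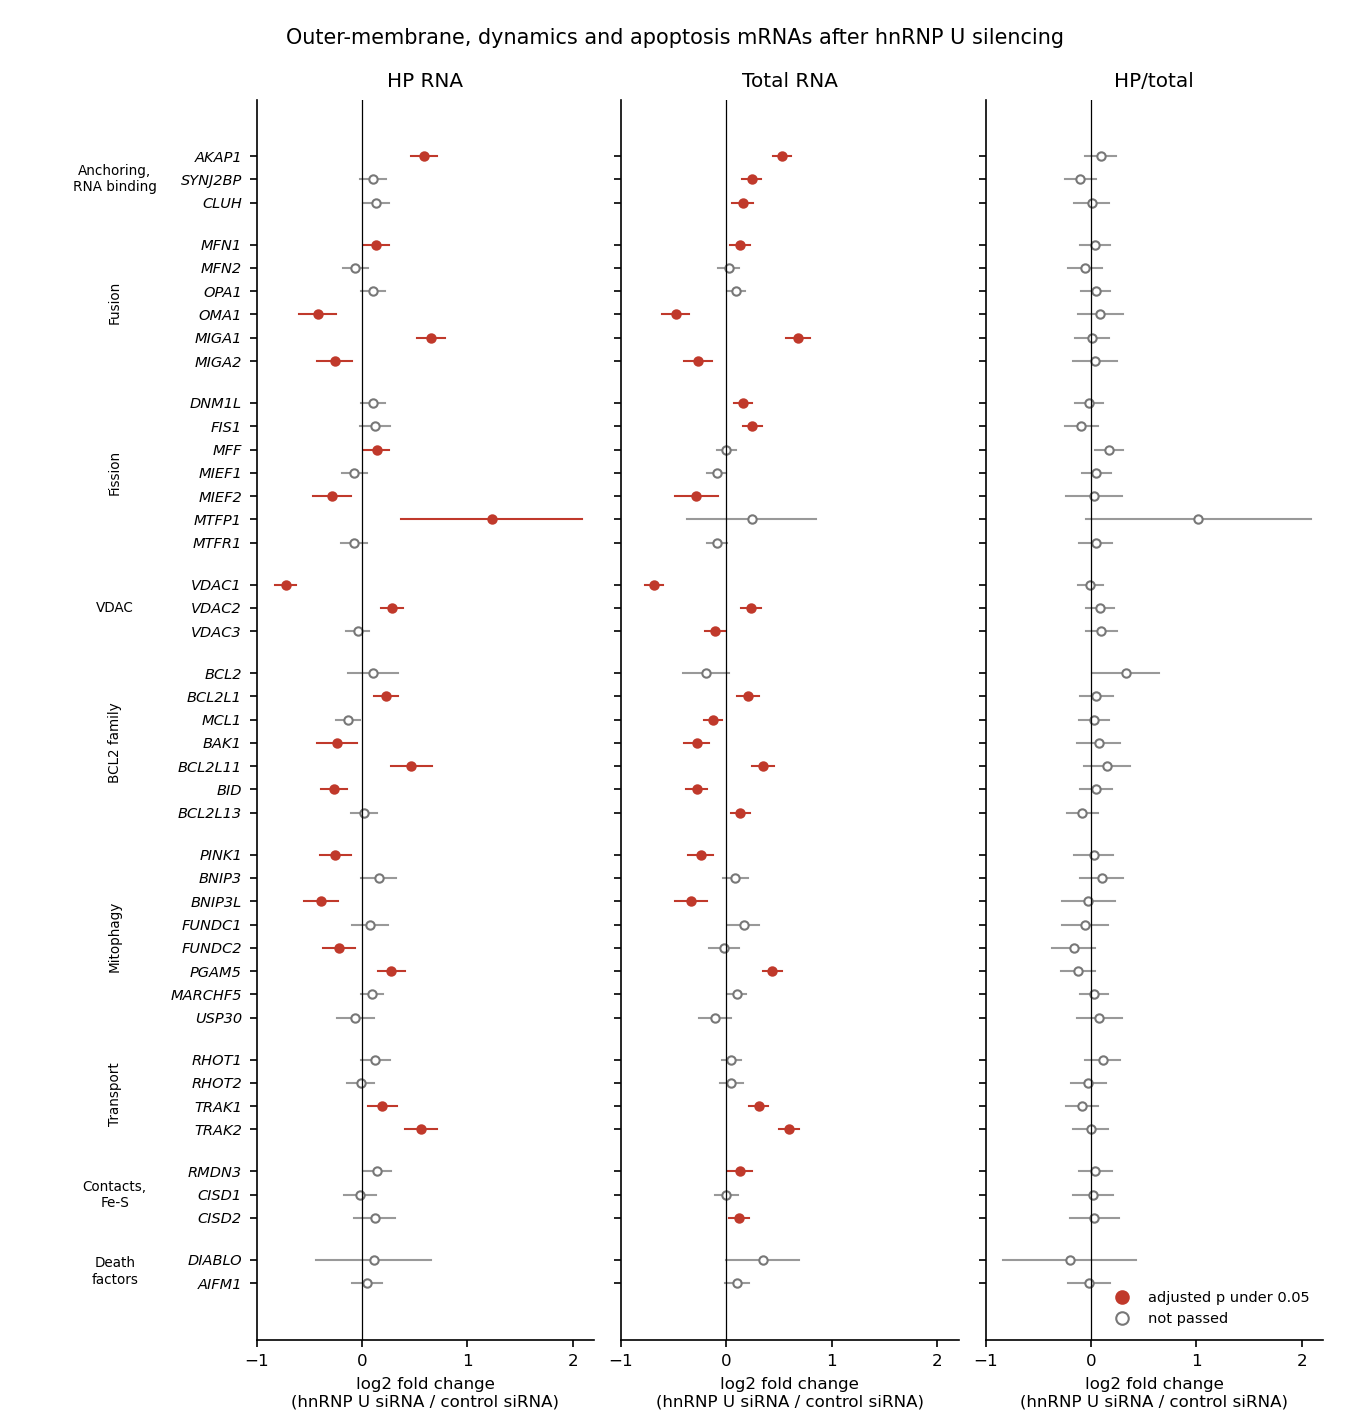
Log2 fold change of hnRNP U siRNA over control siRNA for the 43 members, in HP RNA, in total RNA and as the ratio HP/total; points are estimates of edgeR, lines their 95% confidence intervals, and filled red points passed an adjusted p of 0.05. Of the 43, 20 passed in HP RNA, 26 in total RNA and 0 in HP/total, and VDAC1 lies farthest to the left in HP RNA and in total RNA.

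Among the proteins that anchor signalling or mRNA at the membrane, AKAP1 was higher. AKAP1 (ENSG00000121057; chromosome 17, 57085092 to 57121346) holds protein kinase A at mitochondria and binds mRNAs there. In HP RNA it had 117.7, 113.8 and 109.2 CPM in experiments 1 to 3 with hnRNP U siRNA, against 69.1, 75.3 and 76.9 CPM with control siRNA. In total RNA it had 143.3, 143.6 and 135.6 CPM with hnRNP U siRNA, against 98.1, 99.1 and 95.4 CPM with control siRNA. Every library with hnRNP U siRNA lay above every library with control siRNA of its kind of RNA. The log2 fold change was 0.59 in HP RNA (SE 0.06, adjusted p = 1.4e-07) and 0.53 in total RNA (SE 0.04, adjusted p = 1.4e-08). SYNJ2BP, an outer-membrane protein that tethers mRNAs with synaptojanin 2, was at 0.11 on the log2 scale in HP RNA (adjusted p = 0.15) and 0.24 in total RNA (adjusted p = 0.00011). Of its exonic bases, 10.3% are shared with a read-through transcript into COX16, whose reads cannot be told from its own there. CLUH, a cytosolic RNA-binding protein of mRNAs for mitochondrial proteins, was at 0.13 in HP RNA (adjusted p = 0.061, and 0.0072 with the experiment as a block) and rose by 0.16 on the log2 scale in total RNA (adjusted p = 0.0097). Of these 3 genes, 1 passed as higher in HP RNA and 3 in total RNA, against 25.5 and 28.0 percent of all genes.

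The fusion genes split, and the clearest contrast lay between the 2 mitoguardins, outer-membrane proteins that promote fusion. MIGA1 (ENSG00000180488; chromosome 1, 77779624 to 77879540) had 42.63, 41.97 and 42.25 CPM in HP RNA with hnRNP U siRNA, against 25.6, 26.9 and 25.9 CPM with control siRNA. Total RNA gave 45.6, 41.4 and 44.2 CPM with hnRNP U siRNA, against 27.7, 25.8 and 28.1 CPM with control siRNA. The 3 libraries with hnRNP U siRNA were above the 3 with control siRNA in each kind of RNA, with no overlap. On the log2 scale the change was 0.66 in HP RNA (SE 0.06, adjusted p = 1.2e-07) and 0.68 in total RNA (SE 0.05, adjusted p = 1.6e-08), the largest rise among the 43 in total RNA. MIGA2 went the other way, at −0.26 in HP RNA (adjusted p = 0.011) and −0.27 in total RNA (adjusted p = 0.0015).

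OMA1, the inner-membrane protease that cleaves OPA1 under stress, was lower. It had 17.6, 18.7 and 17.6 CPM in HP RNA with hnRNP U siRNA, against 20.6, 25.3 and 24.3 CPM with control siRNA. In total RNA the values were 15.1, 15.7 and 16.3 CPM with hnRNP U siRNA, against 21.3, 22.8 and 21.4 CPM with control siRNA. Again the groups did not overlap. It fell by 0.42 on the log2 scale in HP RNA (SE 0.08, adjusted p = 0.00036) and by 0.48 in total RNA (SE 0.06, adjusted p = 4e-06). Its annotated exons share 6.91% of their bases with the gene DAB1 on the same strand.

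The core fusion GTPases moved little. MFN1, which joins outer membranes, was at 0.14 in HP RNA (adjusted p = 0.048) and 0.13 in total RNA (adjusted p = 0.017). The HP call was lost without any of 5 libraries (the 3 with control siRNA and hnRNP U siRNA replicates 1 and 2, adjusted p 0.055 to 0.15) and with 4 other settings, DESeq2 among them (0.051 to 0.13). The call in total RNA was lost with no filter on low counts (0.050) and without control siRNA replicate 2 (0.055) or hnRNP U siRNA replicate 1 (0.072). MFN2, its paralogue, was at −0.06 in HP RNA (adjusted p = 0.36) and 0.02 in total RNA (adjusted p = 0.69). OPA1, the inner-membrane GTPase, was at 0.10 in HP RNA (adjusted p = 0.13) and 0.09 in total RNA (adjusted p = 0.061), and passed with the experiment as a block at 0.032 and 0.030. Of the 6 fusion genes, 2 passed as higher and 2 as lower in each kind of RNA. The shares of all genes were 25.5 and 26.3 percent in HP RNA and 28.0 and 29.3 percent in total RNA.

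**Figure D2:**
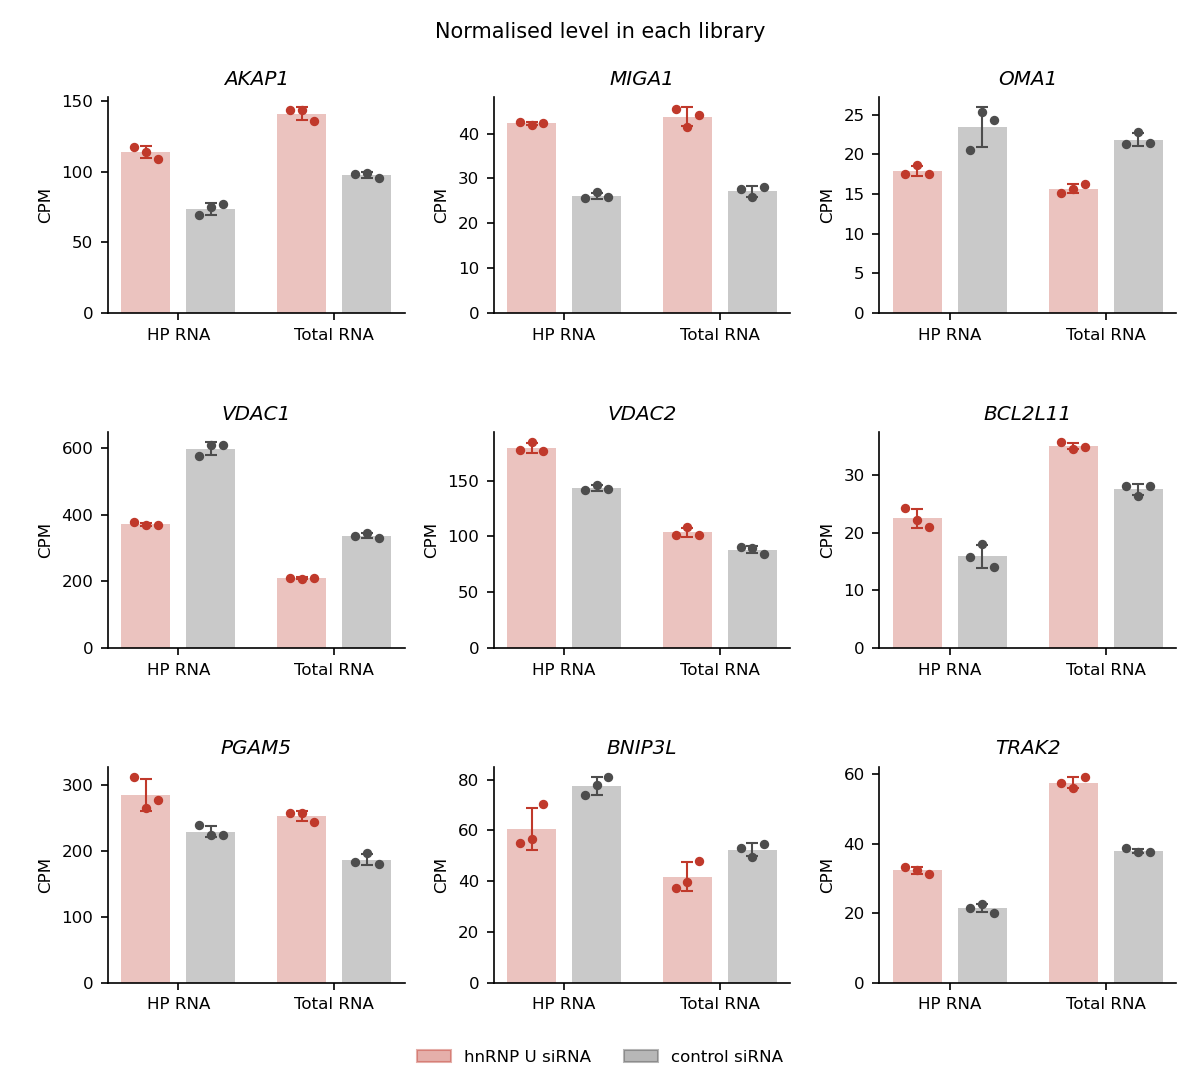
Level in each library (CPM after TMM scaling) of 9 members with the larger changes, in HP RNA on the left of each panel and total RNA on the right; bars are means of 3 libraries, lines are SD, points are single libraries in the order of the experiments, red for hnRNP U siRNA and grey for control siRNA. The 9 were picked for their changes, and in all 9 panels the red and grey points of a kind of RNA do not overlap, as for 58.3% of all genes in HP RNA and 62.0% in total RNA.

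The fission machinery changed by small amounts. DNM1L, the GTPase that divides mitochondria, was at 0.10 in HP RNA (adjusted p = 0.11, and 0.035 with the experiment as a block) and 0.15 in total RNA (adjusted p = 0.0042). FIS1, an outer-membrane adaptor, was at 0.12 in HP RNA (adjusted p = 0.12) and 0.25 in total RNA (adjusted p = 0.00011). MFF, the main adaptor for DNM1L, was at 0.14 in HP RNA (adjusted p = 0.045) and 0.00 in total RNA (adjusted p = 1). The HP call of MFF was lost without any of 4 libraries (replicates 1 and 3 of either siRNA, adjusted p 0.12 to 0.14), with DESeq2 (0.054), with no filter on low counts (0.12) and without the genes of the mitochondrial genome (0.051). MIEF2, an adaptor of the same GTPase, was lower in both, by 0.29 on the log2 scale in HP RNA (adjusted p = 0.011) and 0.28 in total RNA (adjusted p = 0.019). Without 1 library this call was lost in HP RNA for control siRNA replicate 3 (0.050) and in total RNA for control siRNA replicate 3 (0.070) or hnRNP U siRNA replicate 1 (0.11). MIEF1, its paralogue, was at −0.07 in HP RNA (adjusted p = 0.29) and −0.09 in total RNA (adjusted p = 0.065, and 0.045 with the experiment as a block), and MTFR1 was at −0.08 (adjusted p = 0.31) and −0.09 (adjusted p = 0.1).

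MTFP1, an inner-membrane protein that promotes fission, had the largest estimate of the 43 and the fewest counts. In HP RNA it had 29, 13 and 20 counts with hnRNP U siRNA, against 3, 9 and 14 with control siRNA. The total RNA libraries held 17, 22 and 23 counts with hnRNP U siRNA, against 18, 16 and 14 with control siRNA. In CPM these were 0.868, 0.401 and 0.576 against 0.1, 0.273 and 0.361 in HP RNA, and 0.475, 0.561 and 0.617 against 0.552, 0.497 and 0.361 in total RNA. The HP groups did not overlap and the total RNA groups did. The change on the log2 scale was 1.23 in HP RNA (SE 0.41, adjusted p = 0.018) and 0.24 in total RNA (SE 0.29, adjusted p = 0.5). The HP call was lost without control siRNA replicate 1 (0.90, adjusted p = 0.074) and without hnRNP U siRNA replicate 1 (0.91, adjusted p = 0.11), and 78.6% of the bases of its canonical transcript are shared with a read-through gene on the same strand (ENSG00000249590), so that its counts are uncertain.

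The VDAC channels, the porins of the outer membrane, changed in opposite directions. VDAC1 (ENSG00000213585; chromosome 5, 133971871 to 134004975), the most abundant of the 43 mRNAs per length in total RNA, had 377.0, 368.6 and 368.2 CPM in HP RNA with hnRNP U siRNA, against 576.8, 609.5 and 609.2 CPM with control siRNA. In total RNA it had 211.5, 206.0 and 211.2 CPM with hnRNP U siRNA, against 336.7, 343.9 and 329.5 CPM with control siRNA. The gap between the groups was many times the spread within them. It fell by 0.72 on the log2 scale in HP RNA (SE 0.05, adjusted p = 1.4e-09) and by 0.69 in total RNA (SE 0.04, adjusted p = 3.5e-10), the largest fall among the 43 in each.

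VDAC2, which also holds the pore protein BAK1 at the membrane, was higher. It had 177.4, 184.4 and 176.3 CPM in HP RNA with hnRNP U siRNA, against 141.8, 146.5 and 142.3 CPM with control siRNA. Total RNA showed 101.2, 108.5 and 101.7 CPM with hnRNP U siRNA, against 90.2, 89.9 and 84.7 CPM with control siRNA. No library of either group entered the range of the other. The log2 fold change was 0.29 in HP RNA (SE 0.05, adjusted p = 0.00012) and 0.23 in total RNA (SE 0.04, adjusted p = 0.00027). VDAC3 was at −0.04 in HP RNA (adjusted p = 0.52) and −0.11 in total RNA (adjusted p = 0.041). This call was lost with DESeq2 (0.061), with the size factors of DESeq2 and with 1 fit of all 12 libraries. It was also lost without replicate 2 or 3 of either siRNA (0.081 to 0.19).

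Ratios within a library do not depend on the scaling between libraries. Per base of exon, VDAC1 stood at 1.90 times VDAC2 with hnRNP U siRNA and 3.83 times VDAC2 with control siRNA in HP RNA, and at 1.86 and 3.51 times in total RNA. MIGA1 stood at 1.58 times MIGA2 with hnRNP U siRNA and 0.84 times with control siRNA in HP RNA, and at 1.57 and 0.81 times in total RNA, so that the more abundant mitoguardin mRNA was MIGA1 with hnRNP U siRNA and MIGA2 with control siRNA. The log2 ratio of counts of VDAC1 to VDAC2 differed between the siRNAs by −1.01 in HP RNA and −0.92 in total RNA, and that of MIGA1 to MIGA2 by 0.91 and 0.95. BNIP3 to BNIP3L differed by 0.55 and 0.43, VDAC2 to VDAC3 by 0.33 and 0.34, and TRAK1 to TRAK2 by −0.37 and −0.29. Of 11 paralogue pairs, the ratios of the 3 libraries with hnRNP U siRNA did not overlap those of the 3 with control siRNA in 9 pairs in HP RNA and 8 in total RNA. Of single genes, 58.3% of all tested in HP RNA and 62.0% in total RNA had groups that did not overlap, and no such share was computed for ratios of 2 genes. Between 3 libraries and 3, a two-sided exact permutation test cannot go below p = 0.1, which these 17 reached (0.13 after adjustment over the 22 tests).

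**Figure D3:**
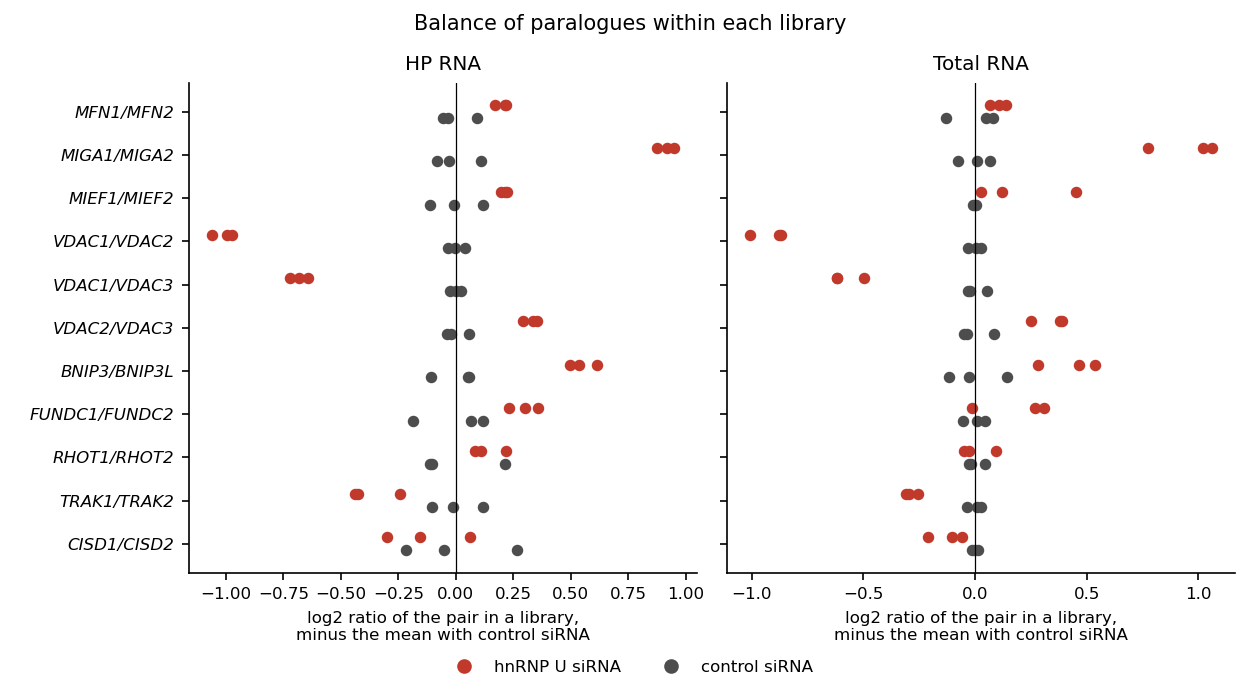
Log2 ratio of the counts of 11 paralogue pairs within each library, set to 0 at the mean of the control siRNA libraries, in HP RNA (left) and total RNA (right); each point is 1 library, red for hnRNP U siRNA (upper row of a pair) and grey for control siRNA (lower row). VDAC1/VDAC2 lies near −1.0 and MIGA1/MIGA2 near 0.9 with hnRNP U siRNA in both kinds of RNA.

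In the BCL2 family, the mRNAs that passed in HP RNA were BCL2L11 and BCL2L1 as higher and BID and BAK1 as lower. BCL2L11 (BIM), a BH3-only activator of cell death (ENSG00000153094; chromosome 2, 111119378 to 111168444), had 24.3, 22.3 and 20.9 CPM in HP RNA with hnRNP U siRNA, against 15.71, 18.01 and 14.02 CPM with control siRNA. In total RNA the values were 35.7, 34.6 and 34.8 CPM with hnRNP U siRNA, against 28.0, 26.4 and 28.0 CPM with control siRNA. All libraries with hnRNP U siRNA were above those with control siRNA. The change on the log2 scale was 0.47 in HP RNA (SE 0.09, adjusted p = 0.00036) and 0.34 in total RNA (SE 0.05, adjusted p = 1.6e-05). BID, the BH3-only protein that caspase-8 cleaves, fell by 0.27 on the log2 scale in HP RNA (adjusted p = 0.00092) and by 0.28 in total RNA (adjusted p = 6.2e-05). BAK1, which forms the death pore, fell by 0.24 in HP RNA (adjusted p = 0.035) and by 0.28 in total RNA (adjusted p = 0.00037). Its HP call was lost with DESeq2 (0.059) and with no filter on low counts. It was also lost without control siRNA replicate 2 (0.12), hnRNP U siRNA replicate 2 (0.12) or hnRNP U siRNA replicate 3 (0.077).

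Among the guards, BCL2L1 (BCL-XL) was at 196.8 ± 5.81 CPM with hnRNP U siRNA and 164.4 ± 7.54 CPM with control siRNA in HP RNA, and at 278.6 ± 7.82 and 240.8 ± 17.6 CPM in total RNA (SD, n = 3 each). It was higher by 0.23 on the log2 scale in HP RNA (adjusted p = 0.0019) and by 0.21 in total RNA (adjusted p = 0.002). Exons of a gene on the opposite strand cover 41.3% of its exonic bases, and the strand setting of the counting is not given. MCL1, a short-lived guard, was at −0.13 in HP RNA (adjusted p = 0.051, and 0.0073 with the experiment as a block) and −0.13 in total RNA (adjusted p = 0.012, and 0.074 without hnRNP U siRNA replicate 3). BCL2 was the least abundant of the family, at 6.36 ± 0.677 CPM with hnRNP U siRNA and 5.78 ± 0.241 CPM with control siRNA in HP RNA, and 6.27 ± 0.769 and 7.14 ± 0.393 CPM in total RNA (SD, n = 3 each), and did not pass in either (adjusted p = 0.46 and 0.12). BCL2L13, a BCL2-like protein that also acts in mitophagy, was at 0.02 in HP RNA (adjusted p = 0.8) and 0.13 in total RNA (adjusted p = 0.012). Of the 7 genes, 2 passed as higher and 2 as lower in HP RNA, against 3 and 3 in total RNA. The shares of all genes were 25.5 and 26.3 percent in HP RNA and 28.0 and 29.3 percent in total RNA.

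Of 8 genes of mitophagy, 1 passed as higher and 3 as lower in HP RNA, against 1 and 2 in total RNA. Over all genes, 25.5 percent passed as higher and 26.3 percent as lower in HP RNA, and 28.0 and 29.3 percent in total RNA. PGAM5, the outer-membrane phosphatase that acts on FUNDC1, was the higher gene (ENSG00000247077; chromosome 12, 132710819 to 132722734). It had 312.7, 265.7 and 278.5 CPM in HP RNA with hnRNP U siRNA, against 240.2, 224.8 and 225.0 CPM with control siRNA. In total RNA it had 258.1, 257.4 and 244.8 CPM with hnRNP U siRNA, against 183.2, 196.7 and 181.0 CPM with control siRNA. The groups did not overlap in either. On the log2 scale the change was 0.28 in HP RNA (SE 0.06, adjusted p = 0.0009) and 0.43 in total RNA (SE 0.04, adjusted p = 2.6e-07).

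BNIP3L (NIX), the receptor that removes mitochondria from maturing red cells, was lower. It had 55.2, 56.5 and 70.2 CPM in HP RNA with hnRNP U siRNA, against 74.0, 77.7 and 80.9 CPM with control siRNA. Total RNA gave 37.3, 39.8 and 48.1 CPM with hnRNP U siRNA, against 53.1, 49.7 and 54.6 CPM with control siRNA. Experiment 3 was the highest with hnRNP U siRNA in each, and lay below all controls. It fell by 0.39 on the log2 scale in HP RNA (SE 0.08, adjusted p = 0.00041) and by 0.34 in total RNA (SE 0.07, adjusted p = 0.00079). PINK1, the kinase that starts ubiquitin-driven mitophagy, fell by 0.25 in HP RNA (adjusted p = 0.0051) and by 0.25 in total RNA (adjusted p = 0.001), and 39.5% of its exonic bases are covered by exons of the opposite strand. FUNDC2 was at −0.22 in HP RNA (adjusted p = 0.019, and 0.083 or 0.070 without control siRNA replicate 1 or hnRNP U siRNA replicate 2) and −0.03 in total RNA (adjusted p = 0.76).

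The other mitophagy receptors and ubiquitin enzymes did not pass. BNIP3 was at 0.16 in HP RNA (adjusted p = 0.098, and 0.034 with the experiment as a block) and 0.08 in total RNA (adjusted p = 0.22). FUNDC1 was at 0.08 in HP RNA (adjusted p = 0.47) and 0.16 in total RNA (adjusted p = 0.052, and 0.025 with the block). MARCHF5, a ubiquitin ligase of the outer membrane, was at 0.10 in both (adjusted p = 0.13 in HP RNA; in total RNA 0.06, and 0.046 with the block), and USP30, the deubiquitinase that opposes mitophagy, was at −0.06 (adjusted p = 0.55) and −0.11 (adjusted p = 0.19).

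Of the transport genes, the TRAK adaptors were higher and the RHOT GTPases they bind did not pass. TRAK2, which joins mitochondria to microtubule motors (ENSG00000115993; chromosome 2, 201377207 to 201451500), had 33.2, 32.5 and 31.3 CPM in HP RNA with hnRNP U siRNA, against 21.7, 22.5 and 20.2 CPM with control siRNA. The total RNA libraries held 57.4, 56.1 and 59.2 CPM with hnRNP U siRNA, against 38.7, 37.7 and 37.7 CPM with control siRNA. No library with hnRNP U siRNA was as low as any with control siRNA. The log2 fold change was 0.56 in HP RNA (SE 0.07, adjusted p = 3.3e-06) and 0.59 in total RNA (SE 0.04, adjusted p = 9.3e-09). TRAK1 was at 0.19 in HP RNA (adjusted p = 0.021, and 0.070 or 0.11 without control siRNA replicate 2 or hnRNP U siRNA replicate 3) and 0.30 in total RNA (adjusted p = 1.6e-05). RHOT1 (Miro1) was at 0.13 in HP RNA (adjusted p = 0.11, and 0.024 with the experiment as a block) and 0.05 in total RNA (adjusted p = 0.37), and RHOT2 at −0.01 (adjusted p = 0.9) and 0.04 (adjusted p = 0.49).

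RMDN3 (PTPIP51), which tethers mitochondria to the endoplasmic reticulum, had 36.3, 36.2 and 35.8 CPM in HP RNA with hnRNP U siRNA, against 31.6, 31.9 and 32.2 CPM with control siRNA. In total RNA it had 31.1, 29.4 and 27.8 CPM with hnRNP U siRNA, against 26.5, 26.9 and 26.9 CPM with control siRNA. The groups did not overlap. On the log2 scale the change was 0.14 in HP RNA (SE 0.06, adjusted p = 0.063, and 0.029 with the experiment as a block) and 0.13 in total RNA (SE 0.05, adjusted p = 0.046). The call in total RNA was lost with DESeq2 (0.088), with no filter on low counts and without any library but hnRNP U siRNA replicate 3 (0.076 to 0.18). CISD2, an iron-sulphur protein of the endoplasmic reticulum and mitochondria, was at 0.12 in HP RNA (adjusted p = 0.3) and 0.12 in total RNA (adjusted p = 0.032, and 0.071 with DESeq2), a call lost without replicate 3 of either siRNA, control siRNA replicate 1 or hnRNP U siRNA replicate 2 (0.074 to 0.092). CISD1 (mitoNEET), its outer-membrane paralogue, was at −0.02 (adjusted p = 0.87) and 0.00 (adjusted p = 0.98).

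The 2 death factors that leave the intermembrane space did not pass. AIFM1 was at 0.05 in HP RNA (adjusted p = 0.58) and 0.10 in total RNA (adjusted p = 0.14). DIABLO (SMAC), which frees caspases from their inhibitors, had 0.689, 1.23 and 0.980 CPM in HP RNA with hnRNP U siRNA, against 0.667, 0.972 and 0.955 CPM with control siRNA. Total RNA showed 1.84, 2.52 and 2.26 CPM with hnRNP U siRNA, against 1.84, 1.68 and 1.70 CPM with control siRNA. Its libraries overlapped in HP RNA and hardly parted in total RNA. The change on the log2 scale was 0.11 in HP RNA (SE 0.26, adjusted p = 0.75) and 0.34 in total RNA (SE 0.16, adjusted p = 0.085), and all of its canonical transcript (100%) is shared with a read-through gene on the same strand (ENSG00000284934), which makes its counts uncertain.

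The ratio of HP RNA to total RNA, which the study used as a measure of translation, was compared between the siRNAs by the interaction term of 1 model of the 12 libraries. None of the 43 passed (0 by edgeR and 0 by DESeq2), against 0.163 percent of all genes tested (0.0817 percent higher and 0.0817 percent lower). Before adjustment 2 of the 43 were under 0.05, MFF at 0.17 (adjusted p = 0.53, edgeR) and BCL2 at 0.33 (adjusted p = 0.68, edgeR). The log2 fold change of HP/total lay within 0.25 of 0 for 41 of the 43. The 95% confidence interval lay wholly within 0.3 of 0 for 35 and within 0.5 for 40. The 3 with wider intervals were MTFP1 (1.02, −0.05 to 2.09), DIABLO (−0.20, −0.84 to 0.43) and BCL2 (0.01 to 0.64). For the other 40 the estimates ran from −0.16 (FUNDC2) to 0.17 (MFF), and the outermost bounds were −0.37 (FUNDC2) and 0.37 (BCL2L11).

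Of members that passed in both kinds of RNA, VDAC1, MIGA1 and TRAK2 had HP/total values near 0. VDAC1 was at −0.005 (95% confidence interval −0.13 to 0.12), MIGA1 at 0.01 (−0.15 to 0.17) and TRAK2 at −0.004 (−0.17 to 0.16). AKAP1 at 0.09 (−0.05 to 0.24) and PGAM5 at −0.13 (−0.29 to 0.04) lay farther from 0, with intervals that held 0. The median absolute value of the 43 was 0.05. Of the genes that passed in only 1 kind of RNA, none showed a difference between the kinds past the threshold in this fit. TMM scales each library, so a shift shared by most mRNAs does not appear in these values.

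Independently of the siRNA, the members differed in how far they were loaded on heavy polysomes. With hnRNP U siRNA, HP RNA against total RNA was positive and past the test for 23 members and negative for 13, or 83.7% in either direction. Of all genes, 34.4 percent were positive and 33.7 percent negative, or 68.1 percent. With control siRNA it was positive for 20 members and negative for 12, or 74.4%. Of all genes, 33.1 percent were positive and 32.0 percent negative, or 65.1 percent. Of the related genes outside the 43, 83.0% passed with hnRNP U siRNA and 77.7% with control siRNA. With hnRNP U siRNA the split depended on the scaling, being 17 and 15 with upper-quartile factors, which set the median of all genes at −0.11 in place of −0.02, and 18 and 15 with a minimum count of 50. With control siRNA the split was 18 and 15 with upper-quartile factors and 19 and 15 with a minimum count of 50. The 3 porins were the most loaded group, VDAC3 at 0.97 with hnRNP U siRNA and 0.89 with control siRNA, VDAC1 at 0.80 and 0.83, and VDAC2 at 0.77 and 0.70. AIFM1 was at 0.73 with hnRNP U siRNA and 0.78 with control siRNA, and PINK1 at 0.76 with both. At the other end lay BAK1 at −0.92 with hnRNP U siRNA and −0.97 with control siRNA, TRAK2 at −0.86 and −0.83, BCL2L11 at −0.66 and −0.79, TRAK1 at −0.63 and −0.53, FIS1 at −0.59 and −0.48 and BCL2L1 at −0.52 and −0.55, all past the test. DIABLO, with its uncertain counts, was at −1.22 and −0.99.

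Several mRNAs of 1 pathway thus stood at different ends. Of the BCL2 family, BID was at 0.44 with hnRNP U siRNA and 0.42 with control siRNA and MCL1 at 0.36 and 0.36, whereas BAK1, BCL2L11 and BCL2L1 were below −0.5. Of the transport genes, RHOT2 was at 0.46 with hnRNP U siRNA and 0.50 with control siRNA, against the negative values of both TRAK adaptors. The order was shared by the siRNAs, with Spearman's rho = 0.95 across the 43 genes, which come from libraries of the same cultures and are not independent. Across the members loading had a rank correlation with coding length of 0.10 with hnRNP U siRNA and 0.12 with control siRNA, and across all 12758 coding genes of −0.11 and −0.10.

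**Figure D4:**
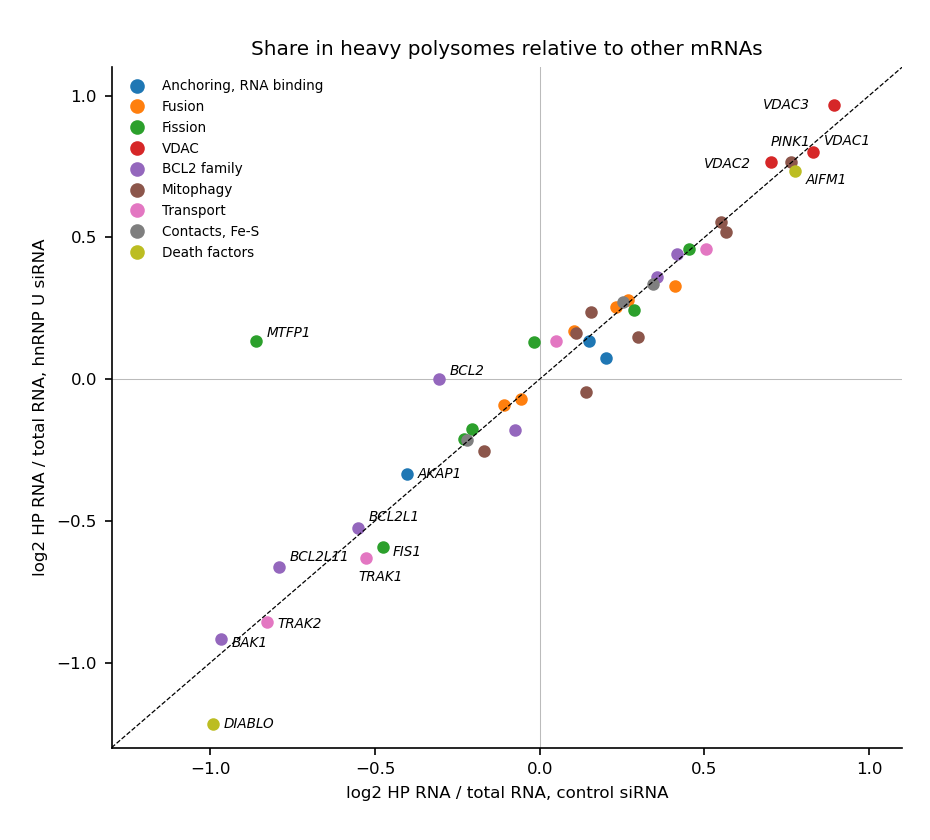
Log2 ratio of HP RNA to total RNA for the 43 members with hnRNP U siRNA (vertical) and control siRNA (horizontal), coloured by role; the dashed line marks equal values. The porins, AIFM1 and PINK1 lie at the upper right, BAK1, TRAK2 and DIABLO at the lower left, and MTFP1 and BCL2, both weakly expressed, lie farthest above the line.

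Per length of exon, the levels spanned more than 2 orders of magnitude. In total RNA, VDAC1 was at 242.8 ± 2.59 TPM with hnRNP U siRNA and 368.7 ± 7.72 TPM with control siRNA (SD, n = 3 each; TPM are counts per exonic base over their sum in the library). BCL2L1 was at 234.5 ± 4.47 and 191.7 ± 16.2 TPM, PGAM5 at 226.6 ± 8.55 and 157.9 ± 5.91 TPM, VDAC3 at 150.5 ± 7.48 and 153.1 ± 4.39 TPM and MCL1 at 113.7 ± 4.68 and 117.0 ± 3.73 TPM. The lead of VDAC1 over BCL2L1 and PGAM5 was thus smaller with hnRNP U siRNA. Below 10 TPM with control siRNA were 7 members, among them MIGA1 at 15.3 ± 0.679 TPM with hnRNP U siRNA and 8.97 ± 0.486 TPM with control siRNA, BCL2 at 1.75 ± 0.208 and 1.89 ± 0.0816 TPM, and DIABLO and MTFP1 at 1.21 TPM or less in both.

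How the members with an RG4 motif compared with the rest depended on which transcripts were searched. Of the 9 with a motif in the canonical transcript, AKAP1 and TRAK2 were higher and MIGA2 and BAK1 lower in HP RNA, and CLUH was added to the higher ones in total RNA. Their median log2 fold change was 0.10 in HP RNA and 0.09 in total RNA, against 0.10 and 0.09 for the 34 without the motif. In HP/total it was 0.04 with the motif and 0.03 without, and 0 of 9 passed by edgeR. With the motif sought in any annotated transcript, 3 of 16 members passed as higher and 6 as lower in HP RNA (median 0.03), against 8 and 3 of the 27 without it (median 0.11). In total RNA these were 6 and 5 of 16 (median 0.07), against 10 and 5 of 27 (median 0.10). Over all genes, 25.5 percent passed as higher and 26.3 percent as lower in HP RNA, and 28.0 and 29.3 percent in total RNA. Genes with and without the motif were not compared over all genes, and a difference between these small groups was not tested.

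Of the 4 members with a match to the seed of siRNA 1 in the 3′ UTR, TRAK2 was higher in both kinds of RNA, MCL1 was lower in total RNA, and BCL2 and OPA1 did not pass. Their log2 fold changes in total RNA were 0.59 for TRAK2, −0.13 for MCL1, −0.19 for BCL2 and 0.09 for OPA1. Over all coding genes tested, the median log2 fold change in total RNA was −0.27 for 931 genes with the match and −0.01 for 11827 without, and in HP RNA −0.30 and −0.01. Whether the match had a part in the values of these 4 members was not tested.

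Related genes of the same pathways, 120 by list, of which 112 were tested, also moved both ways. Those that passed were 32 up and 33 down in HP RNA, 38 up and 36 down in total RNA, and 0 of 112 in HP/total by edgeR. This is 58.0% of them in HP RNA and 66.1% in total RNA, against 51.7 and 57.3 percent of all genes. Of 6 subunits of protein kinase A, the kinase that AKAP1 holds at mitochondria, 1 passed as higher and 4 as lower in HP RNA, against 2 and 4 in total RNA. Among all genes, 25.5 percent passed as higher and 26.3 percent as lower in HP RNA, and 28.0 and 29.3 percent in total RNA. PRKACB, a catalytic subunit, was at 128.2 ± 1.95 CPM with hnRNP U siRNA and 200.5 ± 7.61 CPM with control siRNA in HP RNA (SD, n = 3 each), or −0.68 on the log2 scale (SE 0.05, adjusted p = 7.3e-09). PRKACA, the other main catalytic subunit, was at −0.49 (adjusted p = 1.2e-06) and the regulatory subunit PRKAR2B at −0.45 (adjusted p = 0.00047), while PRKAR1B was at 0.31 (adjusted p = 0.00096). With hnRNP U siRNA, AKAP1 and PRKAR1B were thus higher, and PRKACB, PRKACA and PRKAR2B lower. A relation between AKAP1 and the subunits was not tested.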

How the data were processed

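RNA was sequenced from directional libraries of HCT116 cells, with 3 libraries from 3 independent experiments in each of 4 conditions. The authors deposited raw counts per gene, made from adapter-trimmed reads aligned with STAR to hg38 and a GENCODE annotation (the processing notes also name CASAVA 1.8); the version of STAR and the strand setting of the counting are not given in the sources used here. Gene models, lengths and sequences were taken from GENCODE 44 on GRCh38, which matched 62639 of 62703 identifiers, and 47 pseudoautosomal copies were left out.

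Counts were scaled with TMM and tested in edgeR 4.0.16 (R 4.3.3) with the quasi-likelihood test, after filterByExpr with a minimum count of 10, which kept 15920 genes. The comparisons were hnRNP U siRNA against control siRNA in HP RNA and in total RNA (6 libraries each), their interaction (HP/total, 12 libraries) and HP against total RNA for each siRNA. Adjusted p-values are Benjamini-Hochberg over all genes tested, at 0.05, and errors are SE of the fit or SD over libraries. Paralogue ratios were compared with exact permutation tests (scipy 1.17.1). TPM were computed from counts and the union of exons. The fits were also run on simulated counts in which few genes changed and libraries were independent. In these data many genes changed and experiments paired the libraries, so that run does not vouch for the fits here.

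The alternatives were DESeq2 1.42.0, its size factors, upper-quartile factors, no filter, a minimum count of 50, removal of the genes of the mitochondrial genome, 1 fit of all 12 libraries, each library left out in turn, and the experiment as a block. For HP/total, the culture (siRNA and experiment together) was also taken as a block. Experiments paired the libraries: deviations of same-numbered libraries from their condition means correlated at 0.31 to 0.45 between siRNAs in HP RNA, at 0.14 to 0.36 in total RNA, and at 0.24 to 0.51 between HP and total RNA of the same siRNA. The block is printed beside a gene where it changes the call.

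Library values are given for AKAP1, for members that passed and moved by 0.5 or more on the log2 scale, and for the member with the largest change in each role; OMA1, VDAC2 and BNIP3L were added after their values were seen. Of related genes, up to 3 in each direction per list are named, and 1 such gene is not reported here. The members and lists were chosen with earlier results of these data known. Reads carry no molecular identifiers in the sources used here, so depth gives counting precision only.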

Additional observations from a re-analysis of the deposited data

Results flagged for a closer look

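BCL2 had estimates of opposite sign in the 2 kinds of RNA, neither of which passed (0.11, adjusted p = 0.46, in HP RNA and −0.19, adjusted p = 0.12, in total RNA, edgeR). With hnRNP U siRNA its log2 difference from control siRNA was 0.12, 0.01 and 0.27 in HP RNA and −0.30, −0.19 and −0.09 in total RNA in experiments 1 to 3, so that it was higher in 3 of 3 in HP RNA and lower in 3 of 3 in total RNA. The test of the difference itself, HP/total, gave 0.33 (95% confidence interval 0.01 to 0.64, unadjusted p = 0.042, adjusted p = 0.68 from edgeR), which does not pass. Its counts ran from 181 to 286 per library, and over the alternatives HP/total ran from 0.17 to 0.41.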

How the results depend on the processing

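The counts of members that passed were 17 to 19 in HP RNA, 23 to 26 in total RNA, 0 in HP/total, 33 to 38 in HP against total with hnRNP U siRNA and 30 to 33 with control siRNA when each library was left out in turn. Of all genes (16179 to 16363 tested), 7253 to 7858 then passed in HP RNA, 7997 to 8844 in total RNA and 19 to 37 in HP/total. HP against total passed for 10127 to 10548 with hnRNP U siRNA and 9398 to 10185 with control siRNA. In the same order, the reported fit had 8237, 9123, 26, 10840 and 10368 of 15920. With the experiment as a replicate block 27 passed in HP RNA (against 58.7% of all genes), 30 in total RNA (against 59.7%) and 0 in HP/total (0 with the culture as block). In HP against total 37 passed with hnRNP U siRNA (against 71.0% of all genes) and 34 with control siRNA (against 69.9%). The calls gained in HP RNA and total RNA are given beside the genes. In HP against total the block gained USP30 with hnRNP U siRNA (adjusted p = 0.044), and CLUH (0.00086) and FUNDC1 (0.035) with control siRNA. The block lost no call. Of all 15920 genes, 78 passed in HP/total with the experiment as block and 140 with the culture as block, against 26 in the reported fit. With 1 fit of all 12 libraries, 29 members passed in HP RNA, 20 higher and 9 lower, against 8911 of all genes, 4880 higher. Besides calls the block also gained, FIS1 (adjusted p = 0.016), MARCHF5 (0.015) and SYNJ2BP then passed. Leaving out 1 library gained calls in total RNA for AIFM1 (0.038, control siRNA replicate 2) and DIABLO (0.036, hnRNP U siRNA replicate 1). It also gained BCL2 there (0.049, hnRNP U siRNA replicate 3) and CISD2 in HP RNA (0.049, control siRNA replicate 1). Of the members that passed, 13 of 20 in HP RNA and 20 of 26 in total RNA passed under every alternative tried, and none changed sign. The RG4 motif was found in 16 members in any annotated transcript (37.2%, against 44.4% of coding genes) and in 18 with loops of up to 12 nt (41.9%, against 42.99%).

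Of 3263 values of members under an alternative, 172 changed sign, all of values that passed neither in the reported fit nor under the alternative, and the 24 that moved by over 1 SE are given here. In HP/total, MARCHF5 was at −0.034 with no filter on low counts, and without the genes of the mitochondrial genome MFN1 was at −0.035, OPA1 at −0.029, MIEF1 at −0.020, MCL1 at −0.045 and MARCHF5 at −0.044. Under upper-quartile factors HP against total was at −0.014 for SYNJ2BP with hnRNP U siRNA and −0.037 for RHOT1 with control siRNA. The others of the 24 came from leaving out 1 library in turn. The range was then −0.037 to 0.088 for AIFM1 in HP RNA and −0.070 to 0.050 for FUNDC2 in total RNA. In HP/total it was −0.042 to 0.076 for MFN1, −0.032 to 0.081 for OPA1, −0.076 to 0.051 for MIGA1, −0.062 to 0.075 for MTFR1, −0.0028 to 0.12 for VDAC2, −0.064 to 0.11 for BCL2L1, −0.062 to 0.068 for MCL1, −0.074 to 0.059 for MARCHF5, −0.14 to 0.099 for MIEF2, −0.049 to 0.079 for BID and −0.072 to 0.072 for PINK1, with the negative end without replicate 1 of either siRNA in total RNA. In HP against total it was −0.18 to 0.38 for MTFP1 with hnRNP U siRNA and −0.015 to 0.10 for RHOT1 with control siRNA. BNIP3 in HP against total with control siRNA lost its call under 10 of 14 alternatives. The cause of these changes was not tested. Depth limits MTFP1, DIABLO and BCL2 most.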

Other observations

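Other genes of the outer membrane and of cell death, outside the 43, also moved both ways, and the values in this paragraph are log2 fold changes in HP RNA from edgeR's quasi-likelihood test, with adjusted p. Of 27 other outer-membrane proteins tested, 11 were higher and 7 lower, against 51.7 percent of all genes in either direction. MAOB, the amine oxidase, was at 1.01 (adjusted p = 1.8e-09), MTX1, an import and sorting protein, at 0.65 (5.5e-07) and HK2, the hexokinase that docks on VDAC, at 0.47 (2.6e-06), while MTARC2 was at −0.50 (0.00013) and MTCH1 at −0.45 (1.7e-05). Of 20 other genes of fusion and fission, 6 were higher and 4 lower, among them MICOS10, a cristae subunit, at 0.71 (5.1e-06) and INF2, a formin that acts in fission, at −0.60 (5.4e-08). Of 11 other BCL2 family genes, 2 were higher and 3 lower, with BIK at 0.41 (0.00064), PMAIP1 (NOXA), the partner of MCL1, at −0.53 (1.7e-05) and BCL2L2 at −0.41 (0.00024). Of 17 apoptosome and caspase genes, 4 were higher and 6 lower, with HTRA2 at 0.34 (0.00029), BIRC5 (survivin) at −0.56 (1.6e-06) and CFLAR at −0.38 (9.5e-05).

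Of 20 other mitophagy genes, 4 were higher and 6 lower in HP RNA, against 51.7 percent of all genes in either direction. NIPSNAP1 and NIPSNAP2, which mark damaged mitochondria for autophagy, were at −0.84 (adjusted p = 3.6e-09, edgeR) and −0.62 (2.8e-07), and the receptor OPTN at −0.50 (0.00027), while TAX1BP1, a receptor of the same family of autophagy adaptors, was at 0.36 (2.2e-05). Of 11 motors and adaptors, 4 were higher and 3 lower. KIF5C, a kinesin heavy chain, was at 1.13 (1.7e-09), with 31.1 ± 0.974 CPM with hnRNP U siRNA and 14.0 ± 0.944 CPM with control siRNA (SD, n = 3 each), while MYO19 was at 0.26 (0.00043) and the more abundant paralogue KIF5B at 0.19 (0.0085). The lower ones were SNPH, which anchors axonal mitochondria, at −0.36 (0.0051), KIF1B at −0.24 (0.002) and DISC1 at −1.20 (0.0005), the last under the level set for naming and added after its value was seen (0.619 ± 0.112 CPM with hnRNP U siRNA and 1.40 ± 0.255 CPM with control siRNA). No gene of these lists passed in HP/total.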
